A study of Mus musculus with 6 samples.

Results

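The genes described here encode nuclear subunits of the 5 mitochondrial respiratory chain complexes in subcutaneous B16F10 melanomas of mice. They were taken by name from the deposited table of 20938 genes: symbols beginning with Nduf for complex I, Sdha to Sdhd for complex II, Uqcr for complex III, Cox4 to Cox8 for complex IV, and Atp5 for complex V, without names ending in -ps. Of 94 such genes, 90 had a mean of at least 1 FPKM (fragments scaled to transcript length and library size) over the 6 libraries. These 90 were 47 genes of complex I, 4 of complex II, 8 of complex III, 14 of complex IV and 17 of complex V. The Uqcr prefix misses Cyc1, the cytochrome c1 of complex III. Cyc1 was counted with the assembly factors and electron carriers outside the name rule. The Nduf prefix also takes 8 assembly factors (Ndufaf genes) that are not part of the finished complex, as well as Ndufa4 and its relative Ndufa4l2, of which Ndufa4 is now placed with complex IV.

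Complexes I to IV pass electrons from NADH and succinate to oxygen, and complexes I, III and IV pump protons out of the mitochondrial matrix as they do so. Complex V, the ATP synthase, lets the protons back and makes ATP. Most subunits are encoded in the nucleus, while complex II alone has no subunit from the mitochondrial genome and also serves the TCA cycle; in tumours, the balance between this machinery and glycolysis is a classic subject.

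B16F10 is a melanoma line derived from a C57BL/6 mouse. The cells were injected in 200 µL of saline subcutaneously in the left hind leg of male C57BL/6 mice 6 weeks old, and tumours were collected on day 19. Whole tumours were sequenced, from 3 libraries of control tumours and 3 of tumours overexpressing YKL-40, a secreted chitinase-like glycoprotein, and the genotype label of all 6 is WT. The labels do not say what vector the controls carried, which species' YKL-40 sequence was used, whether the cells were 1 clone, or whether the libraries came from separate mice, and a p-value here covers no more than the variation among these 6 libraries. Chil1, the mouse gene of YKL-40, gave no check of the labels: it was at 0.0644, 0 and 0.0242 FPKM in the controls and listed at 0 in all 3 YKL-40 libraries (exact two-sided permutation p = 0.4).

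The FPKM values of a library summed to between 468605 and 490955, and 10900 to 11301 genes reached 1 FPKM; read depth is unknown. Markers of the melanocyte lineage were high throughout, with Pmel, a structural protein of melanosomes, at 3752 ± 122 FPKM (SD, n = 3) in control and 4906 ± 753 in YKL-40 tumours. The summed level of the 11 melanocyte markers was 8700 to 10193 FPKM in control and 8713 to 10885 in YKL-40 libraries. Endothelial and fat cell markers had medians as close to 0 as the 0.11 of the melanocyte list. They were 0.07 for 9 endothelial genes and -0.08 for 2 fat cell genes, of 10 listed. The summed level of these 2 was 0.727, 5.46 and 3.83 FPKM in control and 0.338, 1.14 and 12.4 in YKL-40 libraries. Their median is thus not evidence of an even fat content. Other lists differed more: the median change was 1.18 on the log2(FPKM + 1) scale for 12 macrophage markers, 1.61 for 9 fibroblast markers and 1.79 for 5 T and NK cell markers, of which 2 passed the adjusted test. The 5 red blood cell genes had a median of -2.17, and 2 near copies among them, which can share reads, went opposite ways: Hba-a1 rose (6.37; limma adjusted p = 0.0303) and Hba-a2 had -7.05 (adjusted p = 0.0965). The 20 skeletal muscle markers tested had a median of -1.48, with 14 lower at an unadjusted p under 0.05 and 0 after adjustment. Fewer cells of a type and less RNA per cell cannot be told apart in whole tumours, and the part of these shifts in the results below was not tested except where a value is given.

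The starts of the genes are shown for the 3 members whose sequences illustrate the range found: Cox7a2l, which had the lowest p of all members; Cox7a1, the muscle isoform discussed below; and Ndufaf4, an assembly factor whose window holds a motif that is common among the members. Each line gives the 250 bases before the annotated start, 5′ to 3′ on the gene's strand, from RefSeq on GRCm38.p6, with matches to the NRF1, ETS and CCAAT motifs (either strand) in capitals. The Cox7a2l window is chr17:83514334-83514583 on the minus strand and holds none of the 3 motifs. The Cox7a1 window is chr7:30183921-30184170 on the plus strand and holds 2 CCAAT matches in reverse orientation. The Ndufaf4 window is chr4:24897833-24898082 on the plus strand, lies within the annotated span of the lncRNA Gm46848 and holds 2 overlapping matches to the NRF1 motif, 1 on each strand.
Cox7a2l: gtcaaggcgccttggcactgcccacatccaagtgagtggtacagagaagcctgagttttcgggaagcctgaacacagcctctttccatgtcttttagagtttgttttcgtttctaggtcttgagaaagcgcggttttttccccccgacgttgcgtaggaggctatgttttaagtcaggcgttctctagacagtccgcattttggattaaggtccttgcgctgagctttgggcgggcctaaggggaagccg
Cox7a1: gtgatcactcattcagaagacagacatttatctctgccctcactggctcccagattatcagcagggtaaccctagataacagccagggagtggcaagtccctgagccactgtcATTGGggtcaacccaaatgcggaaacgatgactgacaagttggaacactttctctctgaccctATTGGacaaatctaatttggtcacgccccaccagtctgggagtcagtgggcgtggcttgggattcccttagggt
Ndufaf4: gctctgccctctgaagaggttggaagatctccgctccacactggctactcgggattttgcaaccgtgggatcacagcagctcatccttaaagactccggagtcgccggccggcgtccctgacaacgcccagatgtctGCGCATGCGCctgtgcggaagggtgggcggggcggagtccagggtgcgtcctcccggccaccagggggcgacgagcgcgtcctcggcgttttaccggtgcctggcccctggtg

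NRF1 is a transcription factor long known for its sites in the promoters of respiratory chain genes. Its motif GCGCNTGCG was in 24.4% of the 78 windows of the 73 members with a window, against 5.19% of all 32851 RefSeq windows. The ETS motif CCGGAAG, read by GABP (NRF2) among others, was in 17.9% of member windows against 6.91%. CCAAT was in 42.3% against 33.8%, and the CRE TGACGTCA in 5.13% against 1.55%. The TATA box TATAAA was in 8.97% against 12.4% and CAGCTG, an E-box read by muscle regulators, in 6.41% against 13.0%. CTATTTTTA, a form of the MEF2 motif, was in 0 of the 78 windows against 0.454% of all. The E-box CACGTG was in 8.97% against 6.02%, CACGTGAC in 2.56% against 1.85%, the hypoxia core ACGTG in 19.2% against 16.6%, and the YY1 motif AAGATGGCG in 1.28% against 0.606%; ACGTG is contained in CACGTG, which is contained in CACGTGAC. All 11 motifs were searched on both strands, and a match is a description of letters, not of binding. Genes with the NRF1 motif were spread over complexes I, II, IV and V, from Ndufa5, Ndufa8 and Ndufs6 to Sdha, Sdhd, Cox6a1 and Atp5h.

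No member of any complex passed the adjusted test between YKL-40 and control tumours (limma, Benjamini-Hochberg over 11241 genes, 0.05). In the same test 49 genes, or 0.436% of all tested, passed, 41 higher and 8 lower. The median change over the 90 members was 0.01 on the log2(FPKM + 1) scale, with 48 above 0 and 42 below, against a median of -0.04 over all genes. The median over all genes differed with transcript length, as given below. The members ranged from -0.76 for Cox7a1 to 0.43 for Cox4i2. The 95% interval of the change stayed within 2-fold in either direction for 88 members and within 1.5-fold for 72, so larger shifts of single genes were outside the intervals for most of the chain. The 2 members whose interval reached beyond 2-fold were Cox7a1 and Ndufa4l2.

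At an unadjusted p under 0.05, a level reached by 18% of all genes, 3 members were higher (3.33%, against 8.71% of all genes) and 4 were lower (4.44%, against 9.24%). The groups did not overlap for 3 members on the higher side (against 10.3% of all genes) and 9 on the lower side (against 14.2%), 13.3% of members against 24.4% of all genes in all. These shares were below the background on both counts. The 7 members were Cox7a2l, Cox7a1 and Cox4i2 of complex IV, Ndufs7, Ndufaf3 and Ndufaf4 of the complex I list, and Atp5c1 of complex V. The count was 12 without YKL-40 library 1 (14.4% of all genes) and 13 without YKL-40 library 2 (20.8%). It was 3 without control library 1 (12.7%), 4 without control library 2 (11.9%), 4 without YKL-40 library 3 (12.3%) and 6 without control library 3 (18.2%). With library quality weights in limma it was 14 (28.6% of all genes), and 3 members passed the adjusted test (Cox7a2l, Cox7a1 and Cox4i2), where 9.88% of all genes did.

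**Figure D1:**
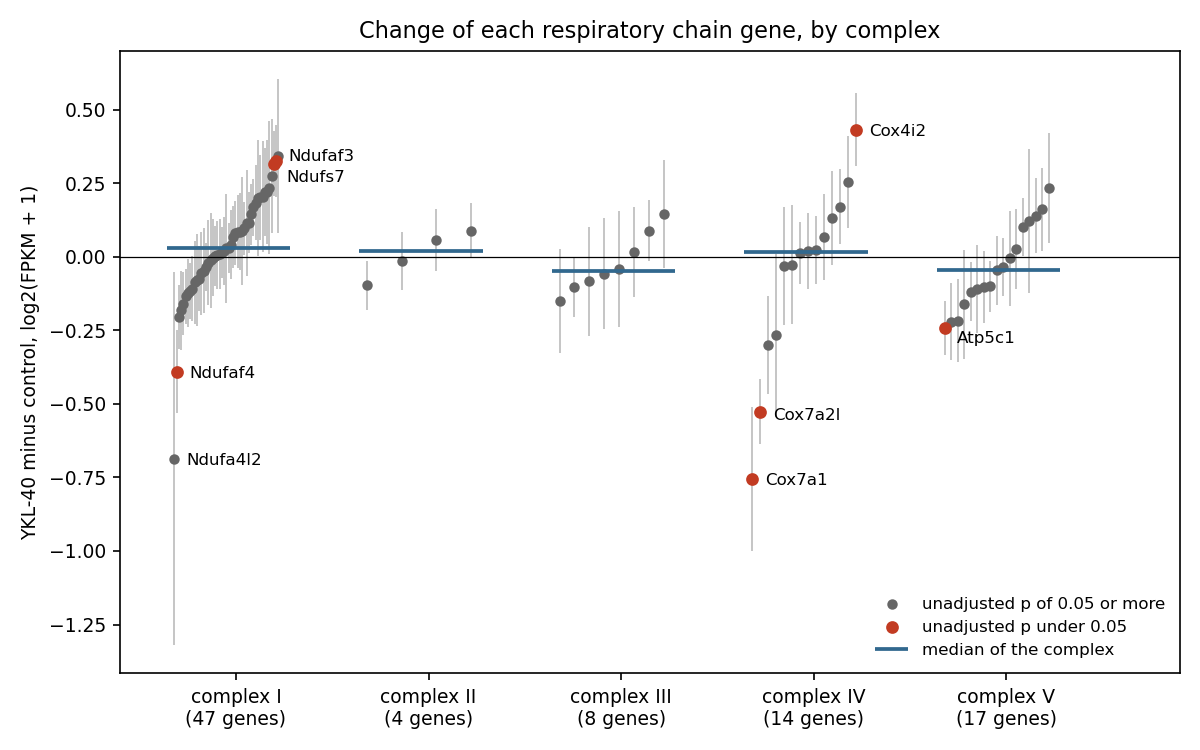
Each point is 1 gene, with its change from control to YKL-40 tumours on the log2(FPKM + 1) scale (vertical axis) and its standard error, in rank order within its complex (horizontal axis); blue lines are the medians. The medians of the 5 complexes lie between -0.05 and 0.03, and the 7 genes in red had an unadjusted p under 0.05.

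By complex, the median change was 0.03 for complex I (29 genes above 0, 18 below), 0.02 for complex II (2 above, 2 below), -0.05 for complex III (3 above, 5 below), 0.02 for complex IV (8 above, 6 below) and -0.05 for complex V (6 above, 11 below). The lowest adjusted p in limma was 0.204 in complex I, 0.582 in complex II, 0.633 in complex III, 0.0845 in complex IV and 0.241 in complex V. All 5 medians thus lay within 0.1 of that of all genes. For complexes I, III, IV and V the sign turned with YKL-40 library 1 or 2 left out. Without YKL-40 library 2 all 5 medians were above 0, at 0.12, 0.07, 0.05, 0.10 and 0.03 for complexes I to V. Without YKL-40 library 1 they were -0.05, 0.01, -0.14, -0.09 and -0.13. With median of ratios scaling the split was 33 above to 14 below in complex I, 10 to 4 in complex IV and 8 to 9 in complex V, and the median of all genes was -0.01.

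Complex I takes electrons from NADH, and its 7 nuclear core subunits carry the flavin and the chain of iron-sulfur clusters. Ndufs7, which holds the last cluster before ubiquinone (chromosome 10, 80249105 to 80256794), was at 26.1, 32.2 and 31.2 FPKM in control libraries and at 39.8, 34.9 and 37.3 in the YKL-40 libraries. All 3 YKL-40 values lay above the highest control. Its means were 29.8 ± 3.26 and 37.3 ± 2.47 FPKM (SD, n = 3), a change of 0.32 (SE 0.11; limma adjusted p = 0.204), and the change ranged from 0.23 to 0.37 over the alternatives. Other core genes lay closer to 0: Ndufs1, the largest core subunit, had a change of -0.12, Ndufs3 0.04, Ndufs8 -0.04, Ndufv1 0.10 and Ndufv2 -0.06. Levels of core subunits differed widely per length, from a mean of 6.66 FPKM for Ndufv2 to 302 FPKM for Ndufs1, although each is present once in the complex.

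The 30 accessory genes of complex I had a median change of 0.08, with 22 above 0 and 26.7% below, against 57.8% of all genes below. None of the 30 had an unadjusted p under 0.05 or groups that did not overlap. The longest transcripts of 29 of them had a median of 875 bases. Over all genes of 700 to 1000 bases the median change was also 0.08. Among the accessory genes Ndufa3, a small membrane-arm subunit, had the highest change. It was at 28.0, 26.8 and 32.2 FPKM in control libraries and 54.8, 24.3 and 37.6 in the YKL-40 libraries. Its change of 0.34 (SE 0.26; limma adjusted p = 0.529) rested mainly on YKL-40 library 1, and YKL-40 library 2 was the lowest of the 6. Ndufa13, also known as GRIM-19, had 0.27, Ndufa2 0.24, Ndufc2 0.22 and Ndufa7 0.22, each with its highest value in YKL-40 library 1. At the other end stood Ndufb5 at -0.12 and Ndufb2 at -0.11. Ndufb4c, at 27.3 ± 3.13 and 27.3 ± 2.45 FPKM, is a near copy of Ndufb4 (48.2 ± 3.46 and 49.0 ± 6.03), so the split of reads between them is uncertain.

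The 8 Ndufaf assembly factors had a median of -0.10 and held members at both ends. Ndufaf3 and Ndufaf4 are known to work together early in assembly, on the arm that receives ubiquinone. Ndufaf4 (chromosome 4, 24898083 to 24905001; its window with the NRF1 motif is printed above) was at 38.0, 38.7 and 35.9 FPKM in control libraries and at 30.1, 22.8 and 33.2 in the YKL-40 libraries. Ndufaf3 (chromosome 9, 108565587 to 108567436) was at 3.07, 3.70 and 4.07 FPKM in control libraries and at 4.73, 4.44 and 5.13 in the YKL-40 libraries. The groups did not overlap for either gene, and they lay in opposite order. The change was -0.39 for Ndufaf4 (SE 0.14; limma adjusted p = 0.221) and 0.33 for Ndufaf3 (SE 0.12; adjusted p = 0.236). Over the alternatives Ndufaf4 ranged from -0.70 to -0.24 and Ndufaf3 from 0.24 to 0.41. Ndufaf2 at -0.20 and Ndufaf7 at -0.13 were also lower in every YKL-40 library than in every control, and neither had an unadjusted p under 0.05. Ndufaf6, which had a change of 0.03, was the steadiest of the 8, between 17.1 and 18.7 FPKM in all 6.

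Ndufa4 was the most abundant gene of the complex I list per length, at 731 ± 63.1 FPKM in control and 647 ± 97.2 in YKL-40 tumours, a change of -0.18. Its relative Ndufa4l2, a gene known to be induced in hypoxia (chromosome 10, 127509274 to 127517154), was the least steady member. It was at 28.9, 81.2 and 89.0 FPKM in control libraries and at 93.9, 19.0 and 27.0 in the YKL-40 libraries, a highest value 4.95-fold the lowest. High and low libraries occurred in both groups. The change of -0.69 had an SE of 0.63 and a 95% interval from -2.17 to 0.80 (limma adjusted p = 0.602).

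**Figure D2:**
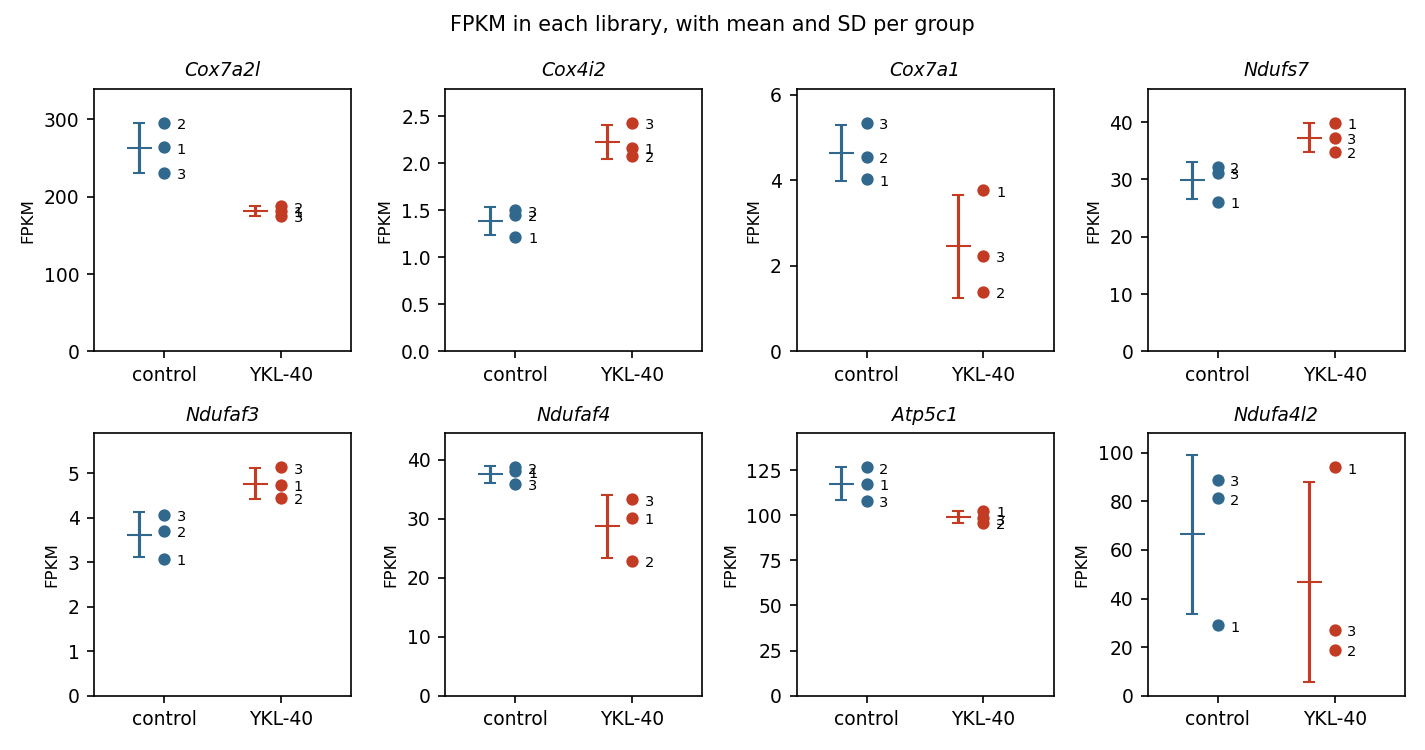
FPKM (vertical axis, from 0) of 8 genes in the 3 control (blue) and 3 YKL-40 (red) libraries, numbered by replicate; bars beside the points are the mean and SD of a group. For 7 of the genes the groups do not overlap; Ndufa4l2 has high and low libraries in both groups.

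Complex II, succinate dehydrogenase, had the smallest spread within groups of the 5, with median SDs of 0.06 in control and 0.11 in YKL-40 tumours on the log2(FPKM + 1) scale. Sdha, the flavoprotein that oxidises succinate, was at 152, 143 and 134 FPKM in control libraries and at 133, 137 and 154 in the YKL-40 libraries, a change of -0.02 with a 95% interval from -0.24 to 0.21. Sdhb, the iron-sulfur subunit, was at 266, 282 and 258 FPKM in control libraries and at 245, 252 and 257 in the YKL-40 libraries. The Sdhb groups did not overlap, but the lowest control lay just above the highest YKL-40 library, and the change was -0.10 (SE 0.08; limma adjusted p = 0.582). The membrane anchors had changes of 0.06 for Sdhc (19.6 ± 0.717 and 20.5 ± 2.29 FPKM) and 0.09 for Sdhd (23.4 ± 0.629 and 25.0 ± 2.13 FPKM). The 95% intervals of all 4 stayed within 1.5-fold. Sdhb was the most abundant per length, at a mean of 260 FPKM, and Sdhc the least, at 20.1.

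Complex III passes electrons from ubiquinol to cytochrome c. The most abundant of its 8 Uqcr genes was the core protein Uqcrc2. Uqcrc2 was at 380.4 ± 36.4 FPKM in control and 353 ± 16.6 in YKL-40 tumours, a change of -0.10. Cyc1, outside the name rule, was more abundant, at 495 ± 42.8 and 508 ± 8.89 FPKM, a change of 0.04. The other core protein, Uqcrc1, had 0.02, and Uqcrfs1, the Rieske iron-sulfur protein, had 0.09 (120.0 ± 1.82 and 128 ± 14.9 FPKM). The 5 accessory subunits had a median of -0.06. Uqcrh, the hinge protein near the cytochrome c site, was at 253, 264 and 250.1 FPKM in control libraries and at 304, 184 and 217 in the YKL-40 libraries. The YKL-40 libraries held both the highest and the lowest Uqcrh value, and the change was -0.15 (SE 0.18). The 95% intervals of all 8 Uqcr genes stayed within 1.5-fold.

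Complex IV, cytochrome c oxidase, held the 3 members of lowest p. Cox7a2l (chromosome 17, 83501917 to 83514333) encodes a protein known for a role in joining complexes III and IV into supercomplexes. Which form of that protein these tumours carry, and whether it has this role in them, was not examined. The Cox7a2l window, with none of the 3 marked motifs, is printed above. Cox7a2l was at 264, 295 and 231 FPKM in control libraries and at 182, 188 and 176 in the YKL-40 libraries. All 3 YKL-40 values lay below the lowest control and within a narrow band. The means were 263 ± 32.0 and 182 ± 6.00 FPKM (SD, n = 3), a ratio of 0.690, and the change was -0.53 (SE 0.11; 95% interval -0.78 to -0.27; limma adjusted p = 0.0845). The change was negative in all 17 alternatives run for it, from -0.78 to -0.44, and the adjusted p ranged from 0.0162 with library quality weights to 0.887 with the muscle markers as a covariate.

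The other 2 forms of subunit 7a differed from each other. Cox7a2, the ubiquitous form of subunit 7a, was at 143 ± 7.17 FPKM in control and 152 ± 28.8 in YKL-40 tumours, a change of 0.07. Cox7a1, the form of skeletal muscle and heart (chromosome 7, 30184171 to 30186030), was near the lower limit, at 4.02, 4.55 and 5.33 FPKM in control libraries and at 3.76, 1.39 and 2.23 in the YKL-40 libraries. The Cox7a1 groups did not overlap, although control 1 and YKL-40 library 1 were close. The change was -0.76 (SE 0.25; limma adjusted p = 0.186) and ranged from -1.02 to -0.52 over the alternatives. Cox6a2, the muscle form of subunit 6a, was at 1.35, 0.861 and 2.85 FPKM in control libraries and at 1.32, 0.758 and 1.37 in the YKL-40 libraries. These overlapped, with control 3 alone above the rest, and the change was -0.27 (SE 0.28), or 0.03 without that library. Cox8b, the muscle form of subunit 8, had a mean of 0.0719 FPKM, below the minimum of 1 FPKM.

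Each muscle form was set against its ubiquitous partner within a library, as a difference of log2(FPKM + 1). For Cox7a1 against Cox7a2 this was -4.89, -4.74 and -4.43 in control libraries and -5.23, -5.68 and -5.61 in the YKL-40 libraries, and the groups did not overlap. The difference of group means was -0.82, with an exact two-sided permutation p of 0.1, the smallest that 3 against 3 can give, and 0.3 after Benjamini-Hochberg adjustment over the 3 pairs. For Cox6a2 against Cox6a1 the difference of means was -0.29 (exact permutation p = 0.6, adjusted 0.6). For Cox8b against Cox8a it was -0.11 (exact permutation p = 0.5, adjusted 0.6), with Cox8b too low for its ratio to carry much beyond the level of Cox8a.

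Markers of skeletal muscle also differed between the groups. Their mean level was 2.62, 2.00 and 3.26 on the log2(FPKM + 1) scale in control libraries and 1.27, 1.65 and 1.03 in the YKL-40 libraries, and their summed level was 88.2 to 253 FPKM in control libraries and 44.4 to 71.1 in the YKL-40 libraries. Of 35 markers listed, 20 reached the minimum, and myoglobin (Mb) did not. Acta1, skeletal muscle actin, was at 7.87, 4.38 and 23.4 FPKM in control libraries and at 0.570, 4.08 and 0.0413 in the YKL-40 libraries. Ckm, the creatine kinase of muscle, was at 7.73, 4.92 and 20.8 and at 2.76, 3.32 and 1.99, and Myh4, a fast myosin, at 6.52, 0.750 and 7.58 and at 0.115, 0.628 and 0. Myl1, the marker of lowest p, had a change of -2.15 (limma adjusted p = 0.0827). The groups were thus apart for Acta1, Ckm, Myh4 and the mean of the list, with control 3 the highest. Of the 20 markers 3 had changes above 0, each with overlapping groups: Myl3 and Myl2, light chains of slow and cardiac muscle, had 0.43 and 0.13, and the muscle enolase Eno3 0.13. Within the YKL-40 group the order differed from that of the isoforms: library 2 had the highest mean marker level and the lowest Cox7a1 and Cox6a2. The longest transcripts of Cox7a1 and Cox6a2 have 485 and 680 bases. Over all genes, YKL-40 library 2 had a median deviation from the 6-library mean of -0.28 under 500 bases and -0.16 for 500 to 700. The part of transcript length in this order was not tested. With the mean marker level as a covariate, Cox7a1 had a change of -0.82, Cox7a2l -0.78 and Cox6a2 0.42. No gene of the whole table passed the adjusted test in that fit. Since the marker level was itself apart between the groups, the fit cannot separate muscle content from group. The SE of Cox7a2l was 0.20 in it, against 0.11 in the main fit.

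**Figure D3:**
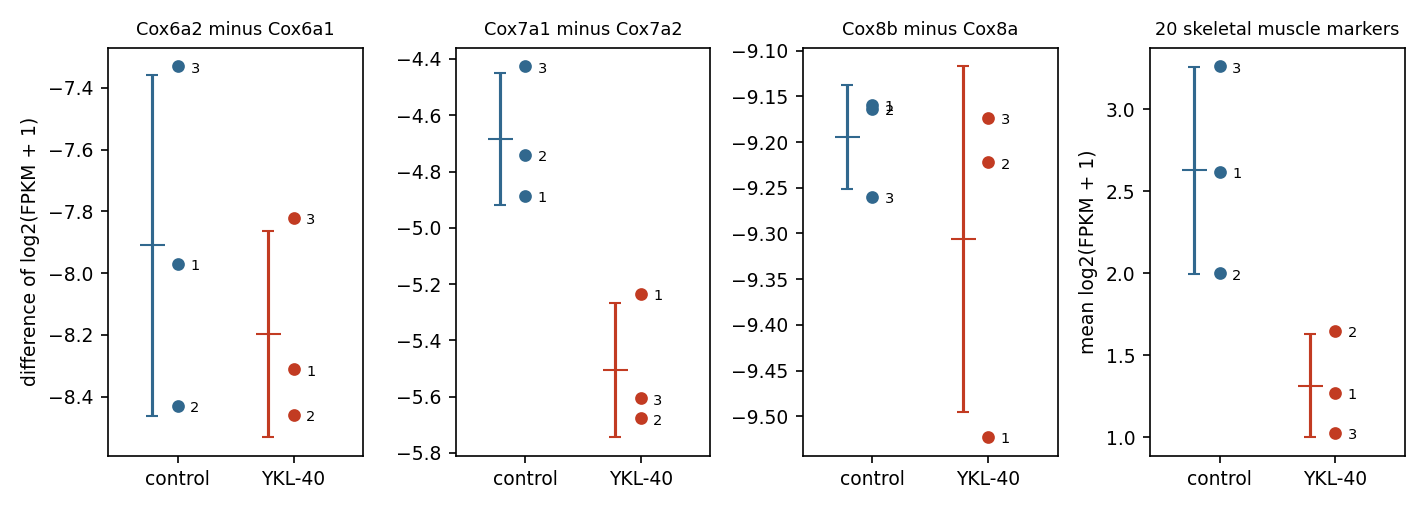
The first 3 panels show the difference of log2(FPKM + 1) between a muscle isoform and its ubiquitous partner in each library, and the last the mean log2(FPKM + 1) of the 20 skeletal muscle markers (vertical axes), with the mean and SD of each group. The groups are apart for Cox7a1 against Cox7a2 and for the markers, and overlap for Cox6a2 and Cox8b.

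Cox4i2, the alternative form of subunit 4 that is known from lung and from tissue short of oxygen (chromosome 2, 152753916 to 152765039), was the member with the highest change. It was at 1.22, 1.45 and 1.499 FPKM in control libraries and at 2.17, 2.08 and 2.43 in the YKL-40 libraries. The groups were clearly apart, at levels close to the minimum. Its means were 1.39 ± 0.149 and 2.22 ± 0.182 FPKM, a ratio of 1.601, and the change was 0.43 (SE 0.12; limma adjusted p = 0.1497), between 0.37 and 0.68 over the alternatives. Pericytes, the contractile cells of small vessels, are also known to express Cox4i2, and all 6 of their markers tested had changes below 0, with a median of -0.44. Their mean level on the log2(FPKM + 1) scale was 2.91, 3.21 and 3.53 in control libraries and 2.09, 3.39 and 2.97 in YKL-40 libraries, and only YKL-40 library 1 lay below the control range. The main form Cox4i1 was at 474 ± 13.1 and 481 ± 53.7 FPKM, a change of 0.01. Cox6b1, a subunit facing cytochrome c, had 0.13 (327 ± 4.69 and 365 ± 81.6 FPKM), while the testis forms Cox6b2, Cox7b2 and Cox8c fell short of 1 FPKM: Cox6b2 had a mean of 0.261 FPKM, the closest below the minimum, and the others were listed at 0 in all 6 libraries. Cox6a2, at a mean of 1.42 FPKM, was the closest above it, followed by Cox4i2 at 1.81.

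The abundant subunits of complex IV had changes of either sign. Cox6a1 was at 616 ± 26.01 and 629.7 ± 101 FPKM, a change of 0.02, and Cox8a at 647 ± 29.9 and 660 ± 84.7, also 0.02. Cox7b, the most abundant per length at a mean of 670.0 FPKM, was at 801, 719.8 and 683 FPKM in control libraries and at 759, 493 and 563 in the YKL-40 libraries. Its change of -0.30 (SE 0.17; limma adjusted p = 0.387) came with overlapping groups, since YKL-40 library 1 lay among the controls. Cox5b, which binds zinc, had 0.25, and Cox5a 0.17.

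In complex V the parts of the enzyme had medians of either sign, and no gene passed the adjusted test. The 5 genes of the catalytic head and central stalk had a median of -0.10. Atp5c1, the rotating gamma subunit (chromosome 2, 10056030 to 10080510), was at 117, 126 and 108 FPKM in control libraries and at 103, 95.8 and 98.2 in the YKL-40 libraries. Its groups did not overlap, and the change was -0.24 (SE 0.09; limma adjusted p = 0.241), between -0.45 and -0.19 over the alternatives. Atp5a1, the alpha subunit, had -0.10 with groups that did not overlap, and Atp5b, the catalytic beta subunit and the most abundant of all 90 members, had -0.12 (1174 ± 73.7 and 1081 ± 60.96 FPKM). The 4 genes of the peripheral stalk, which holds the head still, had a median of -0.11 and were all below 0, with Atp5j at -0.22. The 3 genes that encode the same mature c subunit of the rotor were all above 0: Atp5g1 had 0.23, Atp5g2 0.14 and Atp5g3 0.16. Each of these 3 was highest in YKL-40 library 1, without which the changes were 0.019, 0.019 and 0.017, and none had an adjusted p below 0.55. The 5 small membrane subunits had a median of -0.05, from -0.22 for Atp5mpl to 0.12 for Atp5k.

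The clearest pattern among the members was within the YKL-40 group. YKL-40 library 1 was the highest of the 6 for 55 of the 90 members, against 18.7% of all genes, and YKL-40 library 2 was the lowest for 53, against 14.1%. YKL-40 library 1 exceeded YKL-40 library 2 in 82 of 90 members, by a median of 0.40 on the log2(FPKM + 1) scale, against -0.04 over all genes. The mean level of the complex I genes was 5.87, 6.01 and 5.99 in control libraries and 6.21, 5.78 and 5.97 in the YKL-40 libraries. The controls lay between YKL-40 libraries 1 and 2, as they also did for complexes III, IV and V. For complex II the 6 values were 6.07, 6.07 and 6.02 in control libraries and 6.05, 5.99 and 6.15 in the YKL-40 libraries, and YKL-40 library 3 was the highest. All members together made up 3.02%, 3.15% and 3.02% of the FPKM sum in control libraries and 3.37%, 2.74% and 2.99% in the YKL-40 libraries. The SD within a group was larger among the YKL-40 than the control libraries for 74 of 90 members (82.2%, against 57.2% of all genes), with median SDs of 0.22 and 0.09.

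**Figure D4:**
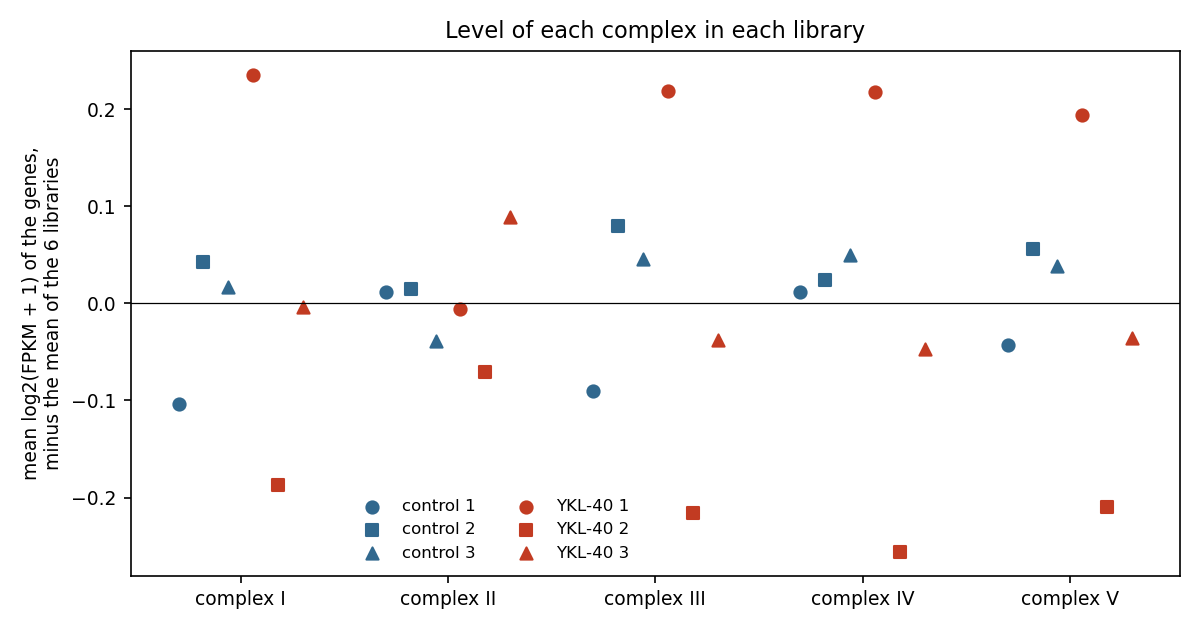
Mean log2(FPKM + 1) of the genes of each complex in each library, minus the mean of the 6 libraries (vertical axis), for complexes I to V (horizontal axis), with controls in blue and YKL-40 libraries in red. YKL-40 library 1 is the highest and YKL-40 library 2 the lowest for complexes I, III, IV and V, and the 3 controls lie between them.

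The gap between YKL-40 libraries 1 and 2 followed the roles of the genes unequally. Its median was 0.69 for the accessory genes of complex III, 0.49 for those of complex I, 0.48 for complex IV and 0.53 for the c subunit genes. It was 0.14 for the core of complex I, 0.13 for the core proteins and Rieske protein of complex III, 0.10 for the ATP synthase head and 0.00 for complex II. Before the adjustment for transcript length given below, the gap was larger for the small accessory subunits than for the large catalytic ones.

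Transcript length moved with this gap over the whole table. The longest protein-coding transcript in GENCODE M21 was known for 89 of the 90 members and had a median of 918 bases, against 3196 for all tested genes, and 55.1% of members were under 1000 bases, against 4.75% of all. Over all genes the median gap between YKL-40 libraries 1 and 2 was 0.61 for transcripts under 500 bases, 0.43 for 500 to 700, 0.29 for 700 to 1000, 0.15 for 1000 to 1500, 0.04 for 1500 to 2500, -0.05 for 2500 to 4000 and -0.16 for longer ones. Members of the same classes had 0.65 (6 genes), 0.53 (21), 0.45 (22), 0.22 (17), 0.14 (13), 0.16 (8) and 0.49 (2 genes, Atp5g1 and Ndufb2, whose longest annotated transcript is long). The medians decreased from class to class for members and for all genes alike up to 2500 bases. With a smooth trend in length removed from each library, an adjustment chosen after seeing the data, the members' median gap was 0.13, with 65 of 89 higher in YKL-40 library 1, against 0.01 for all genes. For complex II it was -0.06, for complex I 0.14, for complex III 0.19, for complex IV 0.10 and for complex V 0.06. By role, the adjusted gap was 0.20 for the accessory genes of complex I and 0.08 for its core. In complex III it was 0.20 for the accessory genes and 0.10 for the core and Rieske proteins. It was 0.19 for the c subunit genes and -0.06 for the ATP synthase head. The differences between these roles were smaller than without the adjustment.

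**Figure D5:**
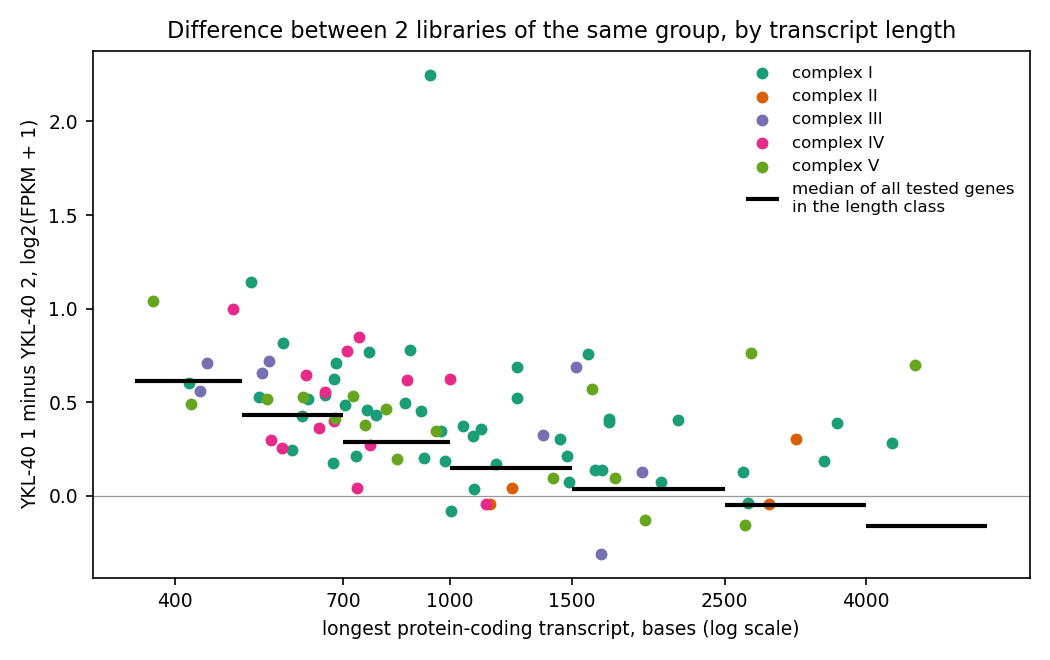
Difference between YKL-40 libraries 1 and 2 on the log2(FPKM + 1) scale (vertical axis) against the length of the longest protein-coding transcript in bases (horizontal log axis) for 89 members, coloured by complex; black bars are the medians of all tested genes in each length class. The bars step down from 0.61 for the shortest to -0.16 for the longest class, and most members lie on or above them.

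The comparison of the 2 groups after the same adjustment gave 11 of 89 members with an unadjusted p under 0.05. Of these 11, 3 were higher, a share below the 10.7% of all genes. The other 8 were lower, a share above the 7.08% of all genes. No member passed after adjustment for multiple tests. Cox7a2l had -0.57 (limma adjusted p = 0.0848) and Cox7a1 -0.82 (adjusted p = 0.0814) in that fit. The genes added on the lower side were Cox7b, Ndufa4, Ndufaf2, Atp5j and Atp5mpl, and Ndufaf4 no longer had an unadjusted p under 0.05. The medians were -0.01 for complex I, 0.03 for complex II, -0.11 for complex III, -0.04 for complex IV and -0.09 for complex V. That of all genes was 0.003. Before this adjustment, the median change between the groups over all genes was 0.01 under 500 bases, 0.06 for 500 to 700 and 0.08 for 700 to 1000. For longer transcripts it was 0.04 for 1000 to 1500 bases, 0.004 for 1500 to 2500, -0.04 for 2500 to 4000 and -0.10 over 4000.

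Genes that work with the respiratory chain gave no adjusted call either (0 of 94 tested). Of 48 assembly factors and electron carriers outside the name rule 47 were tested, with 1 higher (2.13%, against 8.71% of all genes) and 6 lower (12.8%, against 9.24%) at an unadjusted p under 0.05 and a median of -0.03. Sco1, which delivers copper to complex IV, had the lowest p of that list: it was at 13.4, 14.4 and 14.3 FPKM in control libraries and at 8.39, 10.8 and 10.6 in the YKL-40 libraries. The Sco1 groups did not overlap, and the change was -0.47 (SE 0.12; limma adjusted p = 0.115). Taco1, which activates translation of a mitochondrially encoded complex IV subunit, had -0.38. Higd1a, a hypoxia-induced protein bound to complex IV, had 0.81, with control 3 above the lowest YKL-40 library. The TCA cycle and pyruvate dehydrogenase genes had 15 of 17 changes below 0 (88.2%, against 57.8% of all genes) and a median of -0.14, with 2 lower at an unadjusted p under 0.05 (11.8%, near the background). Among them Idh3b, a subunit of isocitrate dehydrogenase, had -0.25 (50.4 ± 0.494 and 42.3 ± 1.59 FPKM; limma adjusted p = 0.186). Of the biogenesis regulators, 12 of 14 tested were below 0 (85.7%), with a median of -0.12, and Mef2c had -0.53 (adjusted p = 0.231). The 16 cristae and inner membrane genes had a median of -0.13, and Slc25a5, an ADP/ATP carrier, had -0.24 (adjusted p = 0.260). The respiratory genes of the mitochondrial genome were not analysed here.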

How the data were processed

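Gene expression in 6 tumour samples (3 control, 3 YKL-40) was measured by RNA-seq from 2 µg of RNA. The TruSeq RNA v2 library used does not mark strand. The authors deposited FPKM values for 20938 genes; per the submitters' processing notes the tools named are bcl2fastq 2.0, HISAT2, StringTie, DESeq2 and limma, with mm10, without their roles. Their gene annotation is not stated in the sources used here. Groups came from the labels. Values were tested as log2(FPKM + 1) with limma 3.58.1 in R 4.3.3 (variance trend, two-sided, no block) over the 11241 genes that averaged 1 FPKM or more, adjusted by Benjamini-Hochberg at 0.05; fold changes on this scale understate those of low genes. FPKM values give no depth, so no counting error is stated. The fit was tested on simulated data.

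Gene positions and windows are RefSeq's on GRCm38.p6, whose primary assembly is mm10. All 90 members had a position, and 73 had a window. Lengths are those of GENCODE M21. The members and lists were chosen with earlier results of these data known. Named genes are Chil1, the 3 members of lowest p and the most abundant member of each complex. Others are the Sdh genes, the isoform pairs and c subunit genes, and genes next to the 1 FPKM limit. Also named are Acta1, Ckm, Mb and Myh4, and the lowest-p gene of other lists. Any other gene named was picked with its values known. Alternatives were other pseudocounts, filters, scalings, variance settings, library weights, a replicate block, a muscle covariate, length adjustment and leaving out each library.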

Additional observations from a re-analysis of the deposited data

How the results depend on the processing

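Only 3 libraries a group, of unknown depth, limited what could be detected. No member passed the adjusted test in any alternative except library quality weights (3 members); leaving out a library in turn also gave 0. Over all genes the count of 49 was 1111 with the weights, 120 with the replicate block, 0 without a filter or with the muscle covariate, 19 after length adjustment and 0 to 238 without single libraries. Members at an unadjusted p under 0.05 numbered 7, and 4 with a minimum of 5 FPKM, 14 with the weights, 4 with the replicate block, 3 with the muscle covariate, 11 after length adjustment, and 3 to 13 without single libraries. Replicate numbers did not pair the libraries (correlations of deviations -0.08, -0.19 and 0.00). With the muscle covariate the medians of complexes I, II and IV turned to -0.073, -0.094 and -0.050. Those of I and IV were -0.012 and -0.036 with the weights and -0.0089 and -0.044 after length adjustment, and that of IV was -0.0062 with Ndufa4 and Ndufa4l2 counted in it. Cox6a2 against Cox6a1 ranged from -0.55 to 0.0024 without single libraries, and Cox8b against Cox8a was -1.18 with a pseudocount of 0.01. Acta1, Ckm and Myh4 are among the markers averaged into the muscle covariate, so their values under it are no separate result. Signs turned with the muscle covariate for Sdhd (-0.0065), Sdhc (-0.032), Uqcrfs1 (-0.0066), Cox6a2 (0.42), Cox7a2 (-0.21), Cox8a (-0.034), Cox4i1 (-0.065), Acta1 (0.41), Ckm (0.27), Myh4 (0.21) and Cspg4 (0.074). They turned with the weights for Sdha (0.058), Cox6a1 (-0.13), Cox8a (-0.078), Cox4i1 (-0.048) and the fat cell marker Plin4 (0.17), with median of ratios scaling for Sdha (0.023), and after length adjustment for Sdha (0.022), Cox6a1 (-0.043), Cox8a (-0.042) and Cox4i1 (-0.044). Without single libraries the ranges that crossed 0 were Sdhc -0.0060 to 0.14, Uqcrh -0.35 to 0.0092, Sdha -0.076 to 0.030, Cox6a1 -0.098 to 0.13, Cox6a2 -0.50 to 0.027, Cox7a2 -0.057 to 0.22, Cox8a -0.081 to 0.079, Cox4i1 -0.076 to 0.059, Cox6b1 -0.032 to 0.29 and Plin4 -0.73 to 0.13. The causes were not tested.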
